A study of Mus musculus with 6 samples.

Results

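*Ncam1* and 7 further genes known to respond to loss of the nerve, *Runx1*, *Gadd45a*, *Dach2*, *Gdf5*, *Cdkn1a*, *Eda2r* and *Tnfrsf12a*, were followed in mouse gastrocnemius (GAS) muscle that lacks Kvβ2, 8 genes of the 37979 in the table. *Ncam1* was chosen by its measured level, selected on being higher in knockout than in wildtype muscle. Its difference between the genotypes is therefore given as a description without a test. The other 7 were chosen from what is known of denervated muscle, but with earlier results of these data known. Their differences were tested, and these tests were not fixed before the data were seen. Kvβ2 is the β2 subunit of voltage-gated potassium channels and is encoded by *Kcnab2*. RNA was sequenced from 3 wildtype (WT) and 3 Kvβ2 knockout (KO) male mice, which came from the interbreeding of mice carrying the null allele, were in the young group of the study (20 weeks) and had no treatment. Each mouse gave 1 library, and the libraries of both genotypes are numbered 1, 7 and 8. The null allele is present in every tissue, nerve included, so the design does not separate a loss in the muscle from a loss elsewhere.

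A muscle fibre that loses its nerve returns to part of the program of developing muscle. *Ncam1* encodes the neural cell adhesion molecule, which in an innervated adult fibre is held largely at the neuromuscular junction and after denervation spreads over the whole fibre surface. The induction runs through histone deacetylases and the DACH2 repressor to myogenin, which binds E-boxes, short DNA sites of the form CANNTG, and Gadd45a acts in the nucleus of the fibre in the atrophy that follows. Satellite cells, the stem cells of muscle, and the Schwann cells that ensheathe nerve also make NCAM1. In whole-muscle RNA, fewer cells of a type and less RNA per cell cannot be told apart.

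The levels are FPKM, the fragments counted per unit length of transcript relative to those a library has in all, so levels can be compared between genes. The depth estimated from the low values was 13970000 to 18180000 fragments in the KO and 19230000 to 20160000 in the WT libraries, so each KO library was shallower than each WT library. *Kcnab2* was at 0.233, 0.10 and 0.110 FPKM in the WT libraries 1, 7 and 8, and at 0, 0.0151 and 0 FPKM in the KO libraries in the same order. The myofibre markers used as a check of the tissue reached 39667 FPKM or more in sum in every library, although *Myh4*, the major fast myosin of this muscle, was listed at 0 in all 6, so a listed 0 is not read here as absence. Of 12334 genes that averaged 0.5 FPKM or more, limma called 40 between the genotypes at an adjusted p under 0.05, which is 0.324%, with 31 higher (0.251%) and 9 lower (0.073%) in KO. Genotypes that do not overlap are common in this table, since 18.3% of the genes tested had every KO library above every WT library and 16.2% had every one below. Across genes the fold change moved with the GC content of the transcripts (Spearman's rho = 0.704 over genes that share the same 6 libraries, which are not independent). Fold changes are therefore also given after the GC trend was removed from each library.

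Promoter sequence shows the window in which an E-box would be looked for beside the values. RefSeq (GRCm38.p6) gave the 250 bases before the start for 6 of the 8 genes, 9 windows in all. *Ncam1* and *Gdf5* are not among them. The 3 sequences below were chosen because each gene is among the most abundant of the 8 and has a single E-box in the window shown. They are printed 5′ to 3′ on the strand of the gene, with CANNTG in capitals and with bases that the annotation places in an exon left off. *Gadd45a* is shown at chr6:67037458-67037657 (minus strand), *Tnfrsf12a* at chr17:23677469-23677699 (minus strand), and the inner start of *Cdkn1a* at chr17:29093519-29093768 (plus strand).
Gadd45a: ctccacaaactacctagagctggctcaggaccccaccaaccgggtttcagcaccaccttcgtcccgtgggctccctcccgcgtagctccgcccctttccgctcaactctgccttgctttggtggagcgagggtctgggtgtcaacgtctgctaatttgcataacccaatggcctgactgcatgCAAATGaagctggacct
Tnfrsf12a: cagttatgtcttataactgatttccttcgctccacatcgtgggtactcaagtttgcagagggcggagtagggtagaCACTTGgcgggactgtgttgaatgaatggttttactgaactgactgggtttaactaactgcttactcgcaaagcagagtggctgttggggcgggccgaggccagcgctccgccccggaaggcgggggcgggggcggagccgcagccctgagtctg
Cdkn1a: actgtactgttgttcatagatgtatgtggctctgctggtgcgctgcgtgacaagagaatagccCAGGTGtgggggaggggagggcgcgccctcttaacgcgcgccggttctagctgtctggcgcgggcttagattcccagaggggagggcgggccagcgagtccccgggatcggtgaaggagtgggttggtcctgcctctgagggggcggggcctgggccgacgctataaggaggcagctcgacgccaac
The first base of the E-box lies at -67 in *Gadd45a* (caaatg), at -174 in *Tnfrsf12a* (cacttg) and at -187 in *Cdkn1a* (caggtg), counted back from the base before the start. In the other windows, the outer start of *Runx1* held 3 E-boxes, the outer start of *Dach2* held 1, and *Eda2r*, the inner starts of *Runx1* and *Dach2* and the outer start of *Cdkn1a* held 0, so that 4 of the 9 windows had none. An E-box is a short pattern, present in 66.2% of all 32851 promoter windows of 250 bases, and holding one is the usual case. No window of the 6 genes held CAGCTG, a core form bound by myogenic factors, which 13% of all windows hold, or TGANTCA, the AP-1 form, which 6.75% hold. The Sp1 form GGGCGG, searched on both strands as the others were and present in 32.7% of windows, occurred 5 times in *Tnfrsf12a*, 2 times at the inner start of *Cdkn1a*, and 1 time each in *Gadd45a*, *Eda2r* and the inner start of *Dach2*. A match in letters says nothing of binding.

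*Ncam1*, the cell adhesion molecule, was higher in each KO than in each WT library, by 2.81-fold between the means. *Ncam1* (ENSMUSG00000039542) lies on the minus strand of chromosome 9, from 49502136 to 49798925 in GRCm38. It was at 1.12, 1.31 and 1.19 FPKM in WT libraries 1, 7 and 8 and at 2.90, 3.46 and 3.84 FPKM in KO libraries 1, 7 and 8. The lowest KO library was 2.21 times the highest WT library, so the genotypes did not overlap. The mean was 1.21 ± 0.0988 FPKM in WT and 3.40 ± 0.470 FPKM in KO (SD, n = 3 each). On the log2(FPKM + 0.1) scale, which understates the change of a gene this low, the difference was 1.41 (standard error 0.165). On the longest transcript of 6564 bases these levels correspond to about 142 to 166 fragments in WT and 266 to 414 in KO, so the values do not rest on a few fragments.

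The difference in *Ncam1* was 1.41 after the GC correction as well, its transcripts having a GC content of 50.1%, near the level at which the trend crosses 0. It lay between 1.32 and 1.52 when each library was left out in turn. Its neighbour *Ttc12*, on the same strand and 15911 bases away, differed by 0.24 (adjusted p = 0.616). The antisense gene *Gm11149*, within *Ncam1*, was at 0 except in WT library 8, where it was at 0.0422 FPKM. The kit marks the strand, and whether the counting used it is not given in the sources used here.

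**Figure D1:**
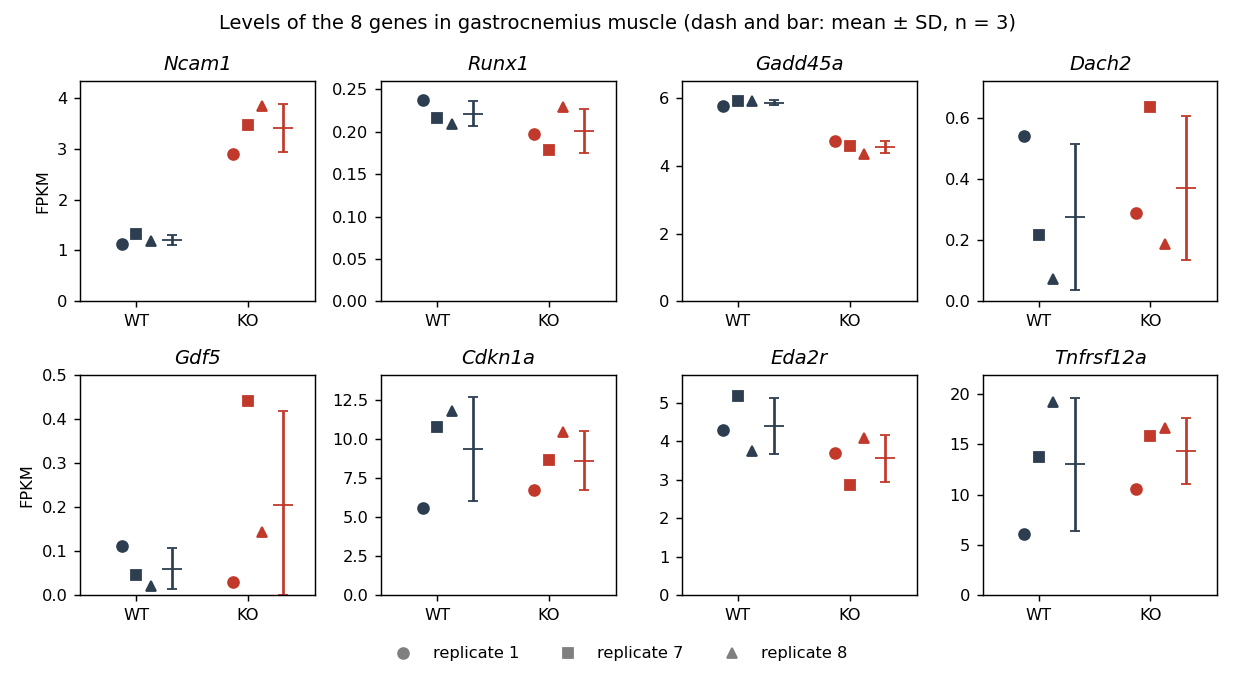
FPKM of each of the 8 genes by library, WT in dark blue and KO in red, with the marker shape giving the library number and the dash and bar giving the mean ± SD (n = 3), cut at 0 for *Gdf5*. The KO libraries of *Ncam1* lie at 2.90 to 3.84 FPKM above WT libraries at 1.12 to 1.31, those of *Gadd45a* lie below WT, and the genotypes overlap in the other 6 genes.

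NCAM1 is also made outside the muscle fibre, so markers of the cells that share the biopsy were set beside it. The summed level of 12 Schwann cell and nerve markers was 30.7 to 110 FPKM in WT muscle and 35.0 to 143 FPKM in KO muscle. These ranges overlapped, with the highest value in KO library 7 and the lowest in WT library 8, an order that *Ncam1* does not have. The Schwann cell factor *Sox10* was at 0.340, 0.380 and 0.163 FPKM in WT libraries 1, 7 and 8 and at 0.209, 0.887 and 0.315 FPKM in KO, which overlap. Of the 8 Schwann markers tested, 4 had higher and 4 lower values in KO, with a median log2 fold change of 0.00010, and 0 were called.

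The summed satellite cell markers separated the genotypes. Their sum was 33.3 to 36.1 FPKM in KO and 19.2 to 27.2 FPKM in WT, without overlap. The 5 of 8 that were tested all had higher values in KO, with a median of 0.42, and 0 were called. The largest contribution was that of *Itga7*, the laminin receptor subunit that fibres also make, at 16.3 to 20.1 FPKM in KO and 8.47 to 13.7 in WT. *Cdh15*, the M-cadherin gene, was also without overlap, at 3.9 to 4.44 and 1.59 to 3.74 FPKM, and its log2 difference of 0.71 was 0.11 after the GC correction. These were 2 of the 5 tested (40%, against 18.3% of all genes). Under the level filter, the marker *Myf5* was without overlap, at 0.386 to 0.797 FPKM in KO and 0.216 to 0.328 in WT. *Calcr*, the calcitonin receptor of quiescent satellite cells, had a lower mean in KO (0.0955 against 0.192 FPKM), with overlap. *Pax7*, the defining factor of satellite cells, was at 0.362 to 0.446 FPKM in KO and 0.340 to 0.529 in WT, which overlap. Higher values were not particular to the satellite cell list. Of 9 myofibre markers tested, 7 had higher and 2 lower values in KO (median 0.59, or 0.36 after the GC correction), and 0 were called. All KO libraries lay above WT in 4 of these 9 (44.4%). The myofibre sums overlapped, at 39667 to 58789 FPKM in WT and 54495 to 64485 in KO. The sums of the leukocyte list (17.8 to 33.2 FPKM in WT, 22.9 to 49.2 in KO) and of the fibroblast and tendon list (412 to 624 and 421 to 631) overlapped. *Dcn* alone made up most of the latter sum. Of 7 leukocyte markers tested, 6 had higher and 1 lower values in KO (median 0.27). Of 10 fibroblast and tendon markers, 8 had higher and 2 lower values (median 0.37, or 0.51 after the GC correction). In both lists 0 were called. The part of these cells in the level of *Ncam1* was not tested.

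**Figure D2:**
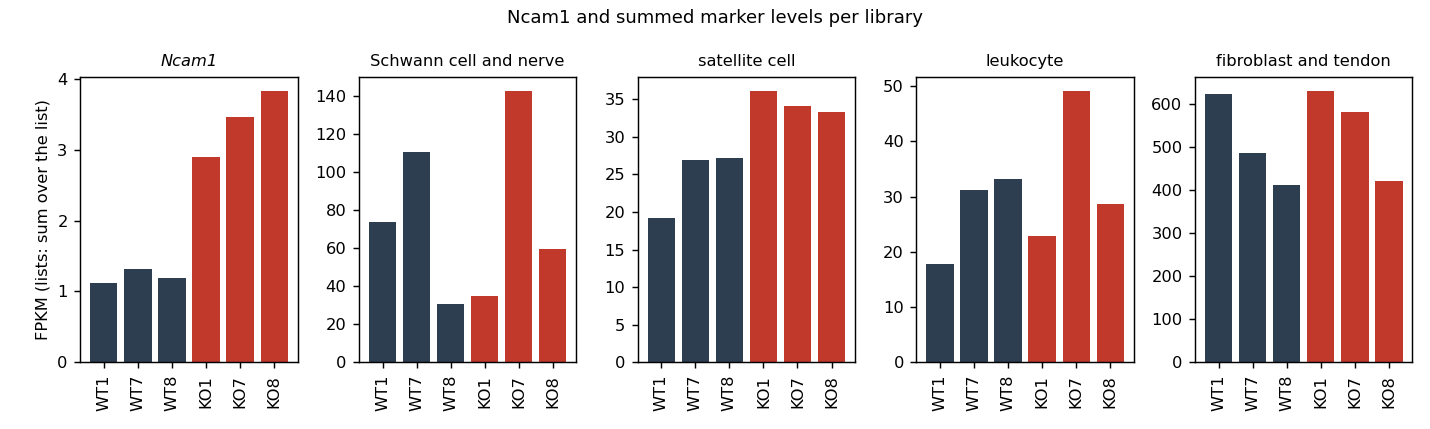
FPKM of *Ncam1* (left) and summed FPKM of 4 marker lists in each library, WT in dark blue and KO in red, on linear axes from 0. The satellite cell sum lies at 33.3 to 36.1 in KO and 19.2 to 27.2 in WT, while the Schwann cell and nerve sum is highest in KO library 7 and lowest in WT library 8.

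The list of 13 relatives and partners of NCAM1 had 0 called genes among 7 tested, of which 4 had higher and 3 lower values in KO (median 0.20, against 0.010 over all genes tested). *L1cam*, an adhesion molecule of the same superfamily, was at 0.280, 0.494 and 0.424 FPKM in WT libraries 1, 7 and 8 and at 0.518, 1.83 and 1.28 FPKM in KO. It did not overlap between the genotypes and differed by 1.27 (adjusted p = 0.149). *Fgfr1*, the growth factor receptor that NCAM1 engages, did not overlap either, at 17.8 to 23.1 FPKM in WT and 25.9 to 30.5 in KO, with a difference of 0.43 (adjusted p = 0.108) that was 0.14 after the GC correction. These were 2 of the 7 tested (28.6%, against 18.3% of all genes). *Nrcam*, a relative of *L1cam* under the level filter, had every KO library below WT, at 0.115 to 0.123 against 0.174 to 0.198 FPKM. The lowest fold change of the list was that of *St8sia4*, which adds polysialic acid to NCAM1, at -0.94 (adjusted p = 0.226). The other polysialyltransferase, *St8sia2*, stayed at 0.0594 FPKM or less, and *Ncam2* at 0.0329 FPKM or less.

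The genes whose levels followed those of *Ncam1* most closely over the 6 libraries were also listed. Among 10677 genes above 0 in every library and at a mean of 1 FPKM or more, the highest Pearson r of the log2 values was 0.998 for *Pcnt*, followed by *Eps15l1* and *Abhd14a* at 0.994 and *Zbtb12* and *Ncoa3* at 0.991. With 6 libraries in 2 genotypes, r is high for any gene that separates the genotypes evenly. *Gadd45a* was near the other end, with r = -0.989, whereas r was 0.34 for *Tnfrsf12a*, 0.038 for *Cdkn1a* and -0.56 for *Eda2r*.

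Of the other 7 genes, 4 passed the filter on low levels. limma called 0 of these 4, against 0.324% of all genes tested, so few calls would be found in any 4 genes. At an unadjusted p under 0.05, 1 of them passed, *Gadd45a*, against 1891 higher and 1339 lower genes among all 12334. Among the 5 genes that passed the filter, all KO libraries lay above WT in 1 (20%, against 18.3% of all genes). This was *Ncam1*, which was selected for being higher. All KO libraries lay below WT in 1 of the 5, *Gadd45a*, against 16.2% of all genes.

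*Gadd45a*, a growth arrest and DNA damage gene that is among the most strongly induced in denervated fibres, had lower values in KO. *Gadd45a* (ENSMUSG00000036390) lies at chromosome 6, 67035096 to 67037457, on the minus strand. It was at 5.79, 5.91 and 5.93 FPKM in WT libraries 1, 7 and 8 and at 4.73, 4.59 and 4.36 FPKM in KO. The WT libraries lay close together and the KO libraries were all below them. The means were 5.88 ± 0.0772 and 4.56 ± 0.187 FPKM (SD, n = 3 each). On the log2 scale KO differed from WT by -0.36 (standard error 0.11, adjusted p = 0.104), short of the threshold. An exact permutation test, two-sided, gave p = 0.1, the smallest that 3 against 3 libraries allow.

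After the GC correction the difference in *Gadd45a* was larger, -0.83 (standard error 0.12, adjusted p = 0.114). Its transcripts have a GC content of 57.4%, a range in which the median gene had a positive fold change. It passed the threshold in 1 of 20 alternatives, with library weights (-0.39, adjusted p = 0.0139), under which 25.5% of all genes passed. Over the others the adjusted p ran up to 0.320, and the sign was negative in all 20. The gene *E230016M11Rik*, on the opposite strand, overlaps *Gadd45a* and was at 0.259 to 1.22 FPKM across the libraries. Its relatives *Gadd45b* and *Gadd45g* had positive fold changes, 0.58 (adjusted p = 0.285) and 0.81 (adjusted p = 0.248), and each overlapped between the genotypes. The value for *Gadd45g* was 0.17 after the GC correction.

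*Cdkn1a*, the p53 target that encodes the cell cycle inhibitor p21, did not separate the genotypes. It lies at chromosome 17, 29090976 to 29100727, on the plus strand (ENSMUSG00000023067). It was at 5.58, 10.8 and 11.8 FPKM in WT libraries 1, 7 and 8 and at 6.70, 8.65 and 10.5 FPKM in KO. In both genotypes library 1 was the lowest, and the groups overlapped. The genotypes differed on the log2 scale by -0.073 (standard error 0.30, adjusted p = 0.896), and its sign turned when KO library 1, WT library 7 or WT library 8 was left out (0.093, 0.062 and 0.12).

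The genes around the cell cycle and p53 gave a similar picture of values in both directions. Of 21 Gadd45 partners, cyclins and kinase inhibitors, 16 were tested, of which 7 had higher and 9 lower values in KO, and 0 were called. All KO libraries lay below WT in 4 of the 16, against 16.2% of all genes, and above in 1 (6.25%, against 18.3%). The 1 above was *Ccnd3*, at 0.85 (adjusted p = 0.0667) and 0.40 after the GC correction. *Cdkn1b*, which encodes p27, was among those below, at 10.8 to 13 FPKM in WT and 9.52 to 9.91 in KO. Its difference of -0.32 (adjusted p = 0.146) was -0.070 after the GC correction. *Cdkn1c*, which encodes p57, overlapped (-0.20, adjusted p = 0.589). The highest fold change in the list was 0.95 for *Cdkn2d* (adjusted p = 0.197) and the lowest was -0.56 for *Ccne2* (adjusted p = 0.180). Of 22 p53 targets, 19 were tested, with 10 higher, 9 lower and 0 called, and a median of 0.0017. *Ddit4* had the highest value, 1.48 (adjusted p = 0.200), with WT library 8 at 16.1 FPKM and the other 2 WT libraries at 3.53 or less, and *Polk* had the lowest, -0.79 (adjusted p = 0.108).

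**Figure D3:**
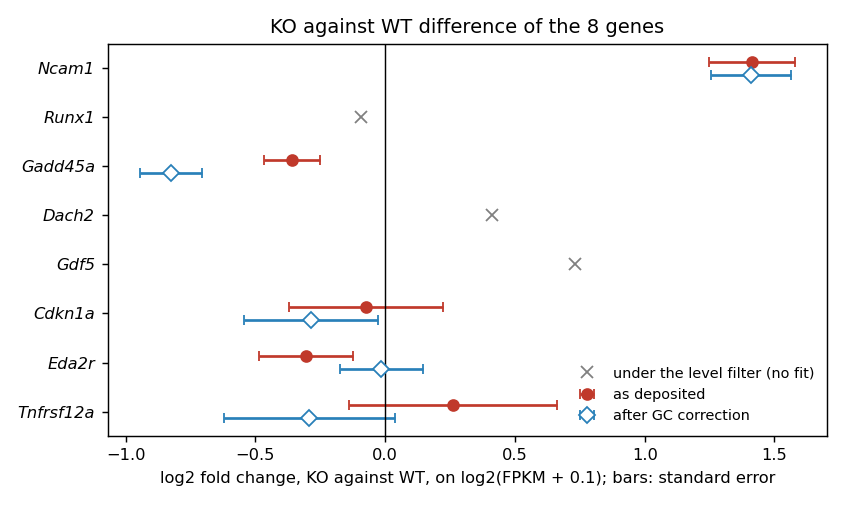
Log2 fold change of KO against WT for each of the 8 genes, with standard errors, on the deposited values (red circles) and after the GC correction (blue diamonds), and the difference of means alone (grey crosses) for the 3 genes under the level filter. *Ncam1* is at 1.41 on both, *Gadd45a* moves from -0.36 to -0.83, and *Tnfrsf12a* changes sign, from 0.26 to -0.29.

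*Eda2r* encodes the ectodysplasin A2 receptor, a p53 target and an atrophy-linked receptor of muscle, and *Tnfrsf12a* encodes Fn14, the receptor of the cytokine TWEAK that appears on fibres after denervation. Neither was called. *Eda2r* (ENSMUSG00000034457, chromosome X, 97333840 to 97377216, minus strand) was at 4.29, 5.19 and 3.74 FPKM in WT libraries 1, 7 and 8 and at 3.71, 2.87 and 4.09 FPKM in KO. The genotypes overlapped, with KO library 8 above WT library 8. The log2 fold change was -0.30 (standard error 0.18, adjusted p = 0.320), and after the GC correction, with a GC content of 42.5%, it was -0.014 (adjusted p = 0.981). Without KO library 7 it was -0.16 and without WT library 7 it was -0.18.

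*Tnfrsf12a* (ENSMUSG00000023905, chromosome 17, 23675445 to 23677468, minus strand) was at 6.05, 13.7 and 19.2 FPKM in WT libraries 1, 7 and 8 and at 10.5, 15.9 and 16.6 FPKM in KO. As with *Cdkn1a*, library 1 was the lowest in both genotypes, and WT spanned the whole KO range. The log2 fold change was 0.26 (standard error 0.40, adjusted p = 0.705). It was -0.29 after the GC correction (GC content 58.8%) and -0.21 without WT library 1. With both libraries numbered 1 left out, an alternative chosen after seeing the data, it was -0.0033.

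The ligand of *Eda2r*, *Eda*, was at 0.495 to 0.759 FPKM in all libraries and differed by -0.014 (adjusted p = 0.980), and the related receptor *Edar* was at 0.0961 FPKM or less. The list of 22 genes of TWEAK, ectodysplasin and NF-κB signalling had 21 in the table and 18 tested, the ligand gene *Tnfsf12* being not analysed here. Of these, 12 had higher and 6 lower values in KO, 0 were called, and the median was 0.24, or 0.10 after the GC correction. The receptor adapters ran from *Traf5* at 0.42 (adjusted p = 0.423) to *Traf6* at -0.41 (adjusted p = 0.144), which was the lowest of the list. *Nfkbib*, an inhibitor of NF-κB, was the highest at 0.75 (adjusted p = 0.121) and 0.15 after the GC correction. All KO libraries lay above WT in 7 of the 18 genes, which is 38.9%, against 18.3% of all genes. They lay below WT in 3 of the 18 (*Traf6*, *Birc2* and *Birc3*), near the share of 16.2% over all genes. Of the 7, *Nfkb2*, *Rela*, *Relb* and *Nfkbib* were between -0.088 and 0.15 after the GC correction. The others were *Traf5* at 0.47, *Nfkbia* at 0.25 and *Ikbkb* at 0.23.

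**Figure D4:**
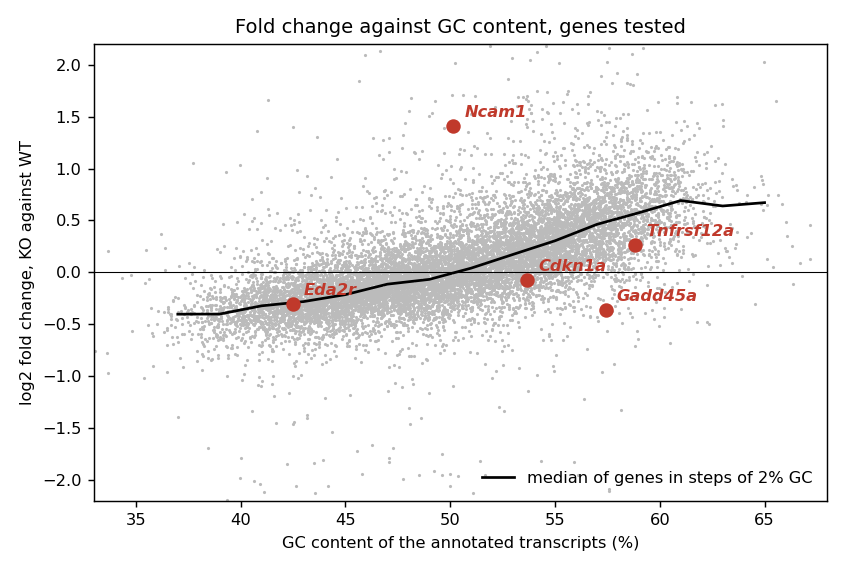
Log2 fold change of KO against WT (vertical axis) against the GC content of the transcripts in percent (horizontal axis) for 11985 tested genes with a known GC content (grey points, of which 124 lie outside the axes), the median of genes in steps of GC (black line) and the 5 tested genes described here (red). *Ncam1* (GC 50.1%) lies at 1.41 far above the line, *Gadd45a* (57.4%) and *Tnfrsf12a* (58.8%) lie below it, and *Eda2r* (42.5%) lies on it.

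The regulators *Runx1* and *Dach2* and the ligand *Gdf5* were under the filter of 0.5 FPKM and were compared by exact permutation tests alone. *Runx1* (ENSMUSG00000022952, chromosome 16, 92601466 to 92826149, minus strand) encodes a transcription factor that limits wasting of the denervated fibre. It was at 0.238, 0.217 and 0.209 FPKM in WT libraries 1, 7 and 8 and at 0.197, 0.178 and 0.229 FPKM in KO. The genotypes overlapped, and the difference of the log2 means was -0.094 (exact permutation test, two-sided, p = 0.3). Its partner *Cbfb* was lower in each KO library, at 35.5 to 61.0 against 66.6 to 75.8 FPKM, and differed by -0.55 on the log2 scale (adjusted p = 0.139), which was -0.28 after the GC correction. *Runx2* and *Runx3* stayed at 0.218 FPKM or less. Blood cells also make *Runx1*, and the leukocyte marker *Ptprc* was at 0.316 to 0.489 FPKM in KO and 0.323 to 0.404 in WT, which overlap.

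*Dach2* encodes the repressor that denervation lowers, with a rise in myogenin as the known outcome. *Dach2* (ENSMUSG00000025592, chromosome X, 113297510 to 113836386, plus strand) was at 0.540, 0.219 and 0.0722 FPKM in WT libraries 1, 7 and 8 and at 0.288, 0.639 and 0.188 FPKM in KO. The spread within a genotype was wide, 7.48-fold in WT, and covered any difference (0.41, exact permutation test, two-sided, p = 0.5). Without WT library 8 the sign turned, to -0.053. Of the 12 genes listed around it, 6 had higher and 6 lower values in KO, and 0 were called. All KO libraries lay above WT in 3 of the 12 (25%, against 18.3% of all genes) and below in 2, against 16.2% of all genes. The paralog *Dach1* was at 0.571 to 0.809 FPKM in WT and 0.462 to 0.552 in KO, without overlap (-0.40, adjusted p = 0.412). Its difference was -0.19 after the GC correction. The highest of the 12 was *Hdac5*, a histone deacetylase of this pathway, at 0.69 (adjusted p = 0.0708), and the lowest was *Eya4* at -0.68 (adjusted p = 0.183). The value for *Hdac5* was 0.079 after the GC correction. Myogenin itself (*Myog*) was at 1.47 to 2.06 FPKM in WT and 1.16 to 3.14 in KO (0.23, adjusted p = 0.687).

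*Gdf5* encodes a ligand of the BMP family that limits atrophy of the denervated fibre. It lies at chromosome 2, 155941023 to 155945367, on the minus strand (ENSMUSG00000038259). It was at 0.112, 0.0462 and 0.0214 FPKM in WT libraries 1, 7 and 8 and at 0.0309, 0.442 and 0.143 FPKM in KO. On its single transcript of 2320 bases these are about 5, 2 and 1 fragments in WT and 1, 19 and 5 in KO, and the KO libraries differed by 14.3-fold among themselves. The difference was 0.73 (exact permutation test, two-sided, p = 0.3), and was 0.20 without KO library 7 and 1.22 without KO library 1. *Gdf5* and *Dach2* shared their highest and lowest libraries, KO library 7 and WT library 8, with the Schwann cell and nerve markers, and the part of nerve in these values was not tested.

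The BMP genes around *Gdf5* divided evenly, with 10 higher, 9 lower and 0 called among 19 tested of 26. The type I receptors *Bmpr1a* (-0.36, adjusted p = 0.164) and *Bmpr1b* (-0.25, adjusted p = 0.363) and the type II receptors *Bmpr2* (-0.73, adjusted p = 0.0912) and *Acvr2a* (-0.72, adjusted p = 0.119) were lower in each KO library than in any WT library. These were 4 of 19 genes, and 4 others (*Id3*, *Bmp4*, *Chrd* and *Acvr2b*) had every KO library above WT, 21.1% in each direction against 16.2% below and 18.3% above over all genes. After the GC correction *Bmpr1a* was at -0.090, *Bmpr1b* at -0.046 and *Acvr2a* at -0.37. *Bmpr2* had the lowest fold change of the list, at 3.35 to 4.48 FPKM in WT and 1.91 to 2.93 in KO, and it was -0.36 after the GC correction. The highest was *Acvr2b*, the activin type IIB receptor, at 1.01 (adjusted p = 0.159) and 0.45 after the correction. The relatives *Gdf6* and *Gdf7* stayed at 0.119 FPKM or less.

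In WT muscle the 8 genes ranked, by mean FPKM, from *Tnfrsf12a* (13) through *Cdkn1a* (9.37), *Gadd45a* (5.88), *Eda2r* (4.41) and *Ncam1* (1.21) to *Dach2* (0.277), *Runx1* (0.221) and *Gdf5* (0.0597). The neighbours *Tnfrsf12a* and *Cdkn1a*, *Cdkn1a* and *Gadd45a*, and *Dach2* and *Runx1* overlapped between libraries, while the other neighbours did not. In KO muscle *Ncam1* (3.40) reached the range of *Eda2r* (3.56), which it did not in WT. *Dach2*, *Gdf5* and *Runx1* overlapped there.

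A wider list of 40 genes known from denervated muscle, which leaves out the 8, was set beside them. It was chosen with earlier results of these data known, so its shares are a description. No direction was set for its genes, and a higher value is not read as a denervation response. Of 33 tested, 23 had higher and 10 lower values in KO, with a median log2 fold change of 0.28, against 51.0% higher and a median of 0.010 over all genes tested. limma called 0 of them, against 0.324% of all genes. At an unadjusted p under 0.05 there were 8 higher (24.2%) and 0 lower, against 15.3% and 10.9% of all genes. All KO libraries lay above WT in 10 of the 33 (30.3%, against 18.3%) and below in 0 (against 16.2%). After the GC correction the median was 0.14, with 22 higher and 11 lower values. The unadjusted threshold was then passed by 6 higher and 2 lower genes of the 33. Over all 11985 genes it was passed by 686 higher (5.72%) and 656 lower (5.47%).

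The 8 genes past the unadjusted threshold, named after their values were seen, belong to different parts of the response. *Mt2* and *Mt1*, metallothioneins that bind zinc, had the highest values with *Uchl1*, *Ankrd1* and *Myh8*, and the others were *Dok7*, *Lrp4* and *Hdac5*. *Mt2* was at 1.81 to 2.51 FPKM in WT and 3.97 to 13.9 in KO (1.54, adjusted p = 0.0983). *Ankrd1*, a stretch-responsive protein of the sarcomere, was at 1.02, 1.48 and 1.29 FPKM in WT libraries 1, 7 and 8 and at 2.12, 3.39 and 3.43 FPKM in KO (1.16, adjusted p = 0.0708). *Myh8*, the perinatal myosin, was at 0.700 to 0.821 FPKM in WT and 1.32 to 3.21 in KO (1.15, adjusted p = 0.105). These did not overlap between the genotypes, and after the GC correction *Ankrd1* was at 1.28 and *Myh8* at 1.23.

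*Uchl1*, a deubiquitinating enzyme of nerve and muscle, was at 0.698 to 0.896 FPKM in WT and 1.73 to 2.36 in KO (1.17, adjusted p = 0.0667). *Dok7* and *Lrp4* encode parts of the receptor complex that holds acetylcholine receptors at the junction, and the third part is encoded by *Musk*. *Dok7* was at 2.0 to 2.96 FPKM in WT and 4.46 to 4.95 in KO (0.99, adjusted p = 0.0667), *Lrp4* differed by 0.55 (adjusted p = 0.125), and *Musk* overlapped (-0.19, adjusted p = 0.660). The GC correction lowered *Uchl1* to 0.68, *Dok7* to 0.37 and *Lrp4* to 0.33.

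Acetylcholine receptor subunits, whose genes denervation strongly induces, overlapped between the genotypes. *Chrna1*, the α subunit, was at 3.39, 4.16 and 5.53 FPKM in WT libraries 1, 7 and 8 and at 2.36, 3.27 and 4.76 FPKM in KO, and its log2 difference of -0.35 (adjusted p = 0.444) was the lowest of the list. *Chrnb1* (-0.060), *Chrnd* (0.28) and the adult ε subunit *Chrne* (-0.079) were near 0 against their standard errors of 0.20, 0.41 and 0.18. The fetal γ subunit *Chrng* stayed at 0.220 FPKM or less in every library. The ubiquitin ligases of atrophy, *Trim63* (0.24, adjusted p = 0.633) and *Fbxo32* (-0.12, adjusted p = 0.846), overlapped as well.

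**Figure D5:**
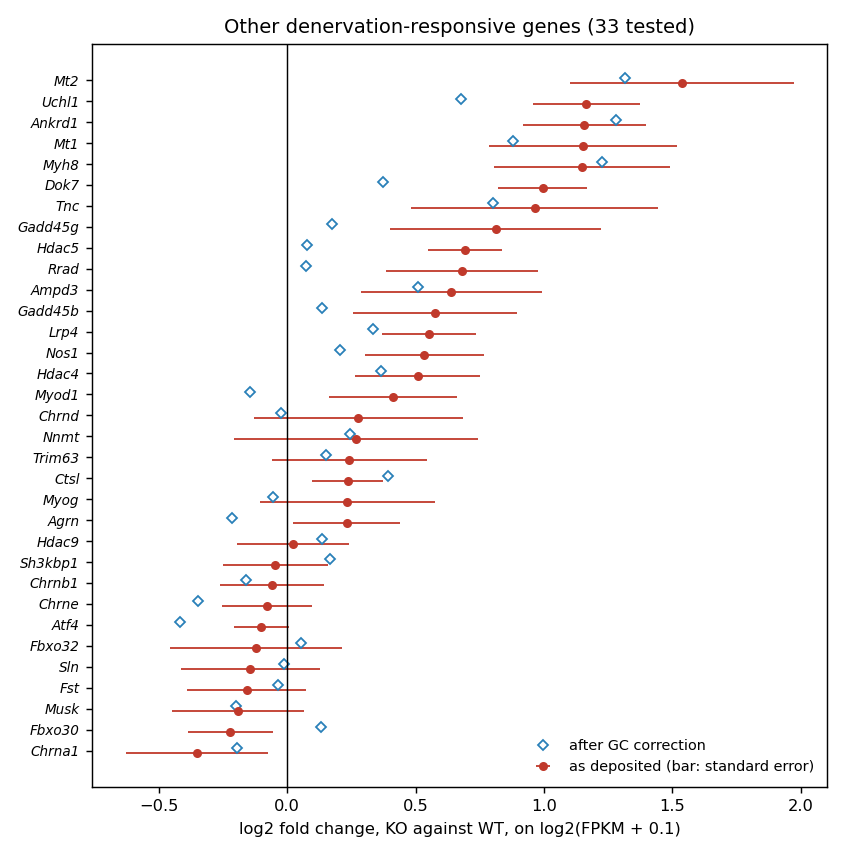
Log2 fold change of KO against WT for the 33 tested genes of the wider denervation list, ordered by value, on the deposited FPKM (red circles with standard errors) and after the GC correction (blue diamonds). *Mt2* is highest at 1.54 and *Chrna1* lowest at -0.35, and the correction moves the median from 0.28 to 0.14.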

How the data were processed

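RNA of mouse GAS muscle, 3 WT and 3 Kvβ2 KO libraries, was measured by RNA-seq with a TruSeq Stranded mRNA kit. The authors mapped reads to GRCm38 with TopHat and deposited the FPKM of 37979 genes from Cufflinks. Versions, annotation release and strand setting are not given in the sources used here. Counts were not tested. Depth was estimated from low values of genes with 1 transcript of 1500 to 6000 bases, of which 89.3% to 93.6% fell within 0.15 of a whole fragment.

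Differences were tested with limma 3.58.1 (R 4.3.3) on log2(FPKM + 0.1), with a variance trend, for the 12334 genes that averaged 0.5 FPKM or more, and with Benjamini-Hochberg adjustment over all of them. Single genes under the filter were tested by exact permutation, two-sided. GC content came from GENCODE vM21, known for 97.2% of tested genes. For the correction, a loess curve (span 0.3) of each library's deviation on GC content was subtracted. The 8 genes and all gene lists were chosen with earlier results of these data known. The text names the 8 genes, their relatives, receptors and partners, the highest and lowest of each list and the 5 genes most like *Ncam1*. Alternatives covered the pseudocount, filter, scaling, variance model, library weights, replicate block, GC content, length, genes listed at 0 and leaving out each library. Over all tested genes, the deviations of same-numbered KO and WT libraries had r = -0.025, -0.080 and 0.034. The main fit did not pair libraries by number. Figures were drawn with matplotlib 3.10.9.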

Additional observations from a re-analysis of the deposited data

How the results depend on the processing

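The sign for *Ncam1*, *Gadd45a* and *Eda2r* was the same in all 20 alternatives run, with *Ncam1* between 0.99 (pseudocount 1) and 1.52, and only *Gadd45a* among the other tested genes passed the threshold in any, with library weights. *Tnfrsf12a* reversed under the GC correction (-0.29), the GC correction with the replicate block (-0.29) and without both libraries numbered 1 (-0.0033, chosen after seeing the data), and ran from -0.21 to 0.62 with a library left out. *Cdkn1a* ran from -0.41 to 0.12 with a library left out. The cause was not tested.

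The 31 genes higher in KO became 7 with pseudocount 1, 9 without a filter, 20 with median scaling, 11 with quantile normalization, 12 without a variance trend, 1863 with library weights, 6 with the GC correction, 19 with the length correction, 1 without genes listed at 0, 6 to 19 with a library left out and 6 without both libraries numbered 1. The 9 lower genes became 4 with pseudocount 1, 1284 with library weights, 0 without genes listed at 0, 5 to 19 with a library left out and 5 without both libraries numbered 1. The denervation list had 0 called genes and 9 of 33 (27.3%) with library weights, under which 25.5% of all genes were called. In the leave-one-out fits the list had 20 to 26 higher genes of 33. With the replicate block, 6 genes were called higher, or 5 with the GC correction added, and the block changed no call for the 8 genes other than *Ncam1*, which was not tested, and none in the denervation list. The block lowered the standard error of *Cdkn1a* from 0.30 to 0.16 and that of *Tnfrsf12a* from 0.40 to 0.21. Correlations near 0 over all tested genes cannot show that same-numbered libraries share only a number, and what they share was not tested.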
